A study of Mus musculus with 12 samples.

Results

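The genes described here are 10 regulators that set or restrain the brown and white fate of fat cells: Prdm16, Mecom, Ebf1, Ebf2, Ebf3, Cebpa, Cebpb, Zfp423, Zfp516 and Ehmt1. They were taken by symbol from the 23420 genes of the count table, and all 10 had enough counts to be tested. The data are 12 RNA sequencing libraries made from the fat of untreated male C57BL/6 mice aged 8 weeks, kept at ambient temperature. The brown depots were interscapular (iBAT) and supraclavicular (scBAT), the white depots were inguinal (iWAT) and epididymal (eWAT), and each had 3 libraries. The labels do not say whether replicates are separate animals, so the p-values measure the spread between these samples, which may in part be technical.

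Fat cells arise from progenitors that first commit to the adipose lineage and then take a brown, heat-producing or a white, lipid-storing program. PRDM16 is a large zinc finger protein that favours the brown program, in complexes with C/EBP-beta and with the histone methyltransferase EHMT1. EBF2 marks brown precursors and helps the adipocyte receptor PPAR-gamma reach brown genes, ZFP423 commits precursors to fat and keeps mature white cells white by holding EBF2 back, and ZFP516 binds the Ucp1 promoter and PRDM16. C/EBP-alpha drives terminal differentiation of fat cells in general.

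Total counts per library ran from 17159401 to 29262554, and the members had from 185 to 21164 counts in a library. A level is given as CPM, a library's counts scaled to a common total with TMM factors, and a difference as a log2 value with its standard error in brackets (SE). A gene was called when its adjusted p in edgeR's quasi-likelihood test was under 0.05. The brown label was checked with Ucp1, the uncoupling protein of brown fat, which ran from 1559 to 2399 CPM over the brown libraries and from 15.7 to 87.7 CPM over the white ones. Adipoq, a hormone gene of fat cells, ran from 738 to 1935 CPM over all 12. The iWAT libraries stood apart from each other: the summed level of 10 B cell markers was 1705 CPM in iWAT 1, 97.8 in iWAT 2 and 2349 in iWAT 3, against 6.09 to 45.5 in the other depots. These are bulk samples, in which fewer cells of a type and less RNA per cell cannot be told apart.

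Between brown and white fat, 6 of the 10 regulators were higher in brown fat, where 31.3% of all 14898 tested genes were called higher. Cebpb, Prdm16, Ebf2, Ebf3, Mecom and Cebpa rose, from 1.47-fold for Cebpa to 5.11-fold for Cebpb. Zfp423 fell 2.74-fold and Zfp516 fell 1.29-fold, so that 2 of 10 were lower, where 38.1% of all tested genes were. Ebf1 and Ehmt1 were not called. The median log2 difference of the 10 was 0.56, and that of all tested genes was -0.11. In 5 of 10 members the 6 brown libraries did not overlap the 6 white ones, near the 45.1% of all tested genes with no overlap.

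**Figure D1:**
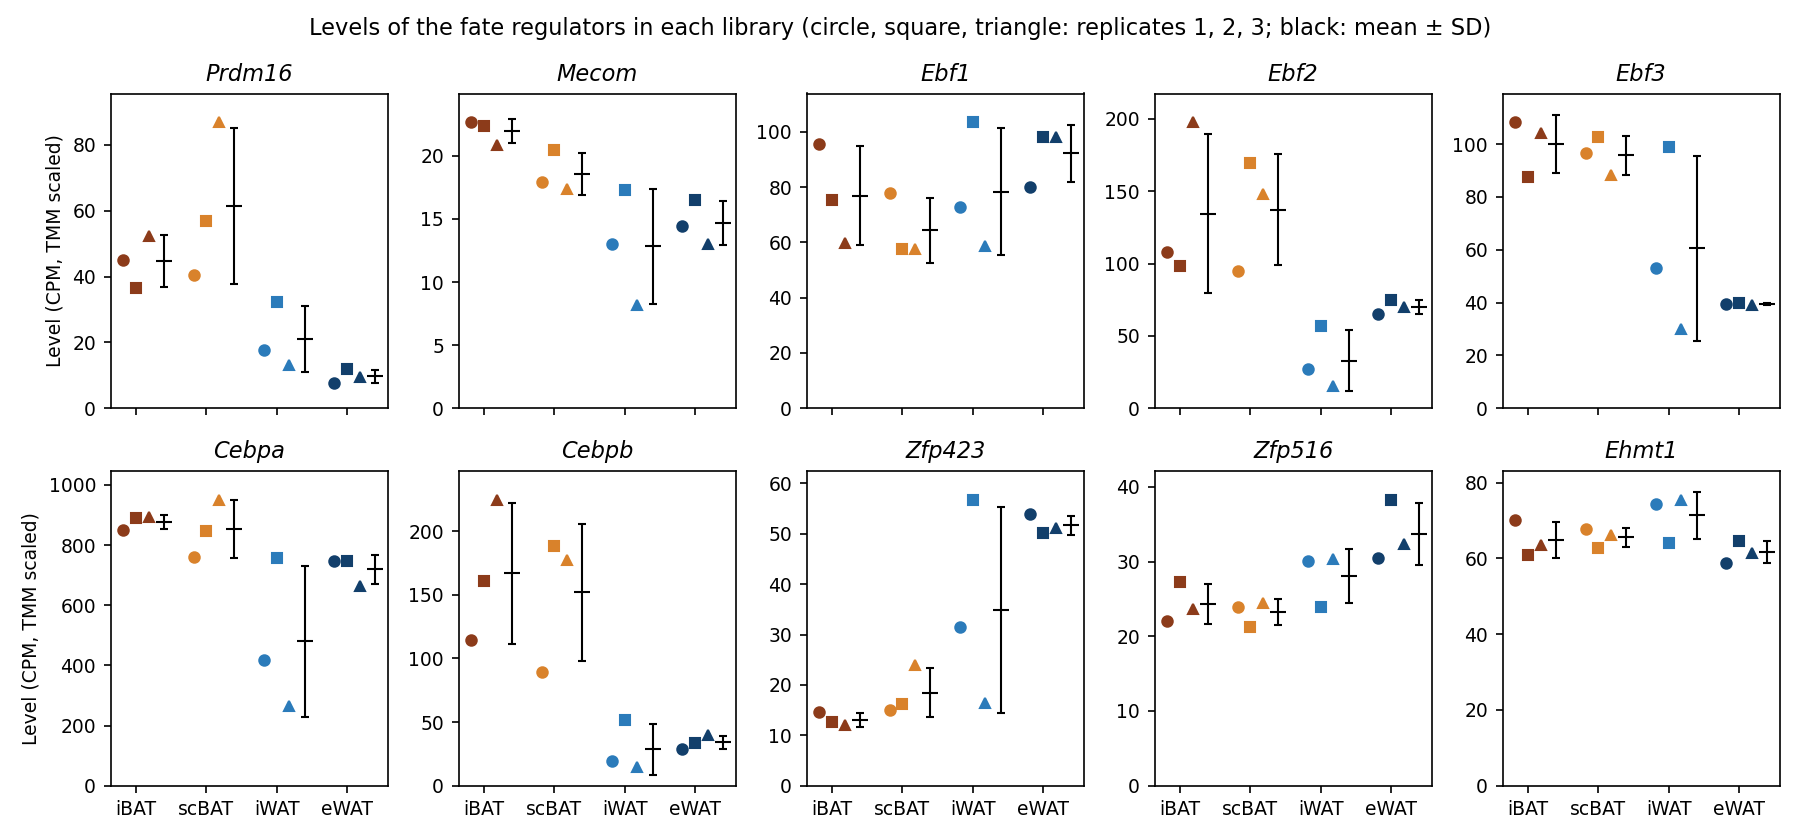
Level of each regulator in CPM (vertical axes from 0, 1 panel per gene) in the 3 libraries of each depot (horizontal axis), with the mean ± SD in black. Prdm16, Ebf2 and Cebpb were high in both brown depots, Zfp423 was high in eWAT, and in iWAT the square (library 2) stood above the others for 8 of the 10 genes.

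Prdm16 (GRCm38 chromosome 4, 154316125 to 154636873) had a stepped order of levels, scBAT, iBAT, iWAT and eWAT. It stood at 45.1, 36.4 and 52.3 CPM in iBAT 1 to 3 and at 40.4, 56.9 and 86.9 CPM in scBAT 1 to 3. It stood at 17.7, 32.4 and 13.1 CPM in iWAT and at 7.77, 11.9 and 9.47 CPM in eWAT. No white library reached the lowest brown one, and no eWAT library reached the lowest iWAT one. The brown minus white log2 difference was 1.87 (SE 0.25, adjusted p = 7.62e-05). The step from iBAT to iWAT was 1.08 (SE 0.35, adjusted p = 0.0201) and that from iWAT to eWAT 1.117 (SE 0.36, adjusted p = 0.0402), while scBAT and iBAT did not differ beyond their spread (0.46, SE 0.35, adjusted p = 1). The call of iWAT over eWAT was lost with limma-voom (adjusted p = 0.0761) and with only the white depots in the fit (adjusted p = 0.136). It was also lost in 9 of the 12 fits that each left out a library (adjusted p up to 0.130).

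Mecom (chromosome 3, 29951296 to 30548008), the closest relative of Prdm16 and like it a zinc finger protein with a PR domain, differed less. It stood at 22.7, 22.4 and 20.9 CPM in iBAT and at 17.9, 20.4 and 17.4 CPM in scBAT. It stood at 13.0, 17.3 and 8.16 CPM in iWAT and at 14.4, 16.5 and 13.0 CPM in eWAT. The lowest brown library (17.4 CPM) was barely above the highest white one (17.3 CPM). Its brown minus white difference was 0.56 (SE 0.16, adjusted p = 0.00872), and with all libraries in the fit no neighbours in the depot order iBAT, scBAT, eWAT, iWAT were called. Mecom was called higher in scBAT than in eWAT (0.35, adjusted p = 0.0232) with only those depots in the fit, and lower in iWAT than in eWAT (-0.46, adjusted p = 0.0408) without iWAT 2.

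The starts of these 2 relatives share a stretch of sequence, which is shown because it is the longest run common to any 2 of the regulators' promoters. Promoters were read from RefSeq (GRCm38.p6) as 250 bases before to 50 after an annotated start, and 8 of the 10 members had an entry, 11 entries in all. Ebf2 and Zfp516 had none. The run of 24 bases, in capitals, lies after the start of transcription on the minus strand, at chr4:154636838-154636867 for Prdm16 and chr3:30509710-30509739 for Mecom (the first of its 2 entries). Among all 32851 promoter entries it occurred in those of these 2 genes only. In the Mecom entry the run ends at the last base read, so its full length was not determined.
Prdm16: tgtGCGCATGTGCGAAGGTGTCCAAACtga
Mecom: tctaacGCGCATGTGCGAAGGTGTCCAAAC

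The ratio of Prdm16 to Mecom was higher in brown than in white fat. Taken within each library as CPM per kb of exon, the log2 ratio was 1.74 ± 0.55 (SD) in the 6 brown and 0.45 ± 0.73 in the 6 white libraries, a difference of 1.29 (exact two-sided permutation test, p = 0.00433, adjusted p = 0.00519 over 6 ratios). It was 1.09 ± 0.23 in iWAT and -0.19 ± 0.24 in eWAT (n = 3 each), where the lowest iWAT library (0.85) lay above the highest eWAT library (-0.04).

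Ehmt1 (chromosome 2, 24789928 to 24919614), the methyltransferase of the PRDM16 complex, was not called in any comparison of depots with all libraries in the fit. Its libraries ranged from 61.0 to 70.2 CPM in brown and from 58.7 to 75.5 CPM in white fat. The brown minus white log2 difference was -0.02 (SE 0.07, adjusted p = 0.762). It changed sign to 0.066 without iWAT 1 and 3, to 0.0067 without iBAT 2 and to 0.0022 without eWAT 2. Its partner methyltransferase gene Ehmt2 fell in brown fat (log2 difference -0.37, SE 0.06, adjusted p = 0.000255).

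The EBF family, helix-loop-helix zinc knuckle factors of which EBF1 is best known from B cells, did not move as a block. Ebf2 (chromosome 14, 67233292 to 67430918) stood at 107.7, 98.1 and 198 CPM in iBAT and at 94.5, 169 and 148 CPM in scBAT. It stood at 26.9, 56.6 and 15.3 CPM in iWAT and at 65.4, 74.5 and 70.2 CPM in eWAT. All brown libraries were above all white ones, and all eWAT libraries were above all iWAT ones. The difference of brown from white fat was 1.502 (SE 0.31, adjusted p = 0.00122). The difference between iWAT and eWAT was -1.09 (SE 0.43, adjusted p = 0.0749), which was called with DESeq2 (adjusted p = 0.0368), with limma-voom (adjusted p = 0.0470) and without iWAT 2 (adjusted p = 0.00278).

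Ebf3 (chromosome 7, 137193673 to 137314445) was again highest in brown fat but had the white depots in the other order. It stood at 108.3, 87.4 and 104.2 CPM in iBAT and at 96.4, 102.7 and 88.1 CPM in scBAT. It stood at 53.1, 98.7 and 29.9 CPM in iWAT and at 39.4, 39.8 and 38.98 CPM in eWAT. Only iWAT 2 reached the brown range, and the eWAT libraries were nearly equal. The log2 difference of brown from white was 1.003 (SE 0.23, adjusted p = 0.00238). Against eWAT alone it was 1.34 (SE 0.32, adjusted p = 0.00511) from iBAT and 1.28 (SE 0.32, adjusted p = 0.00697) from scBAT, while the differences from iWAT, 0.72 for iBAT and 0.66 for scBAT, were not called (adjusted p = 0.0681 and 0.0928). Both were called with limma-voom (adjusted p = 0.0348 and 0.0457) and, at 1.29 and 1.21, without iWAT 2 (adjusted p = 0.000145 and 0.000233), and that of iBAT with DESeq2 (adjusted p = 0.0468).

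Ebf1 (chromosome 11, 44617317 to 45008091) overlapped between brown and white fat over most of its range. Its libraries ranged from 57.4 to 78.0 CPM in scBAT, 59.7 to 95.7 in iBAT, 58.7 to 103.5 in iWAT and 80.1 to 98.2 in eWAT. All scBAT libraries were below all eWAT ones, a difference of -0.52 (SE 0.23, adjusted p = 0.0808) that was not called. It was called with only those depots in the fit (-0.51, adjusted p = 0.0109). It was also called without iWAT 2 (adjusted p = 0.0272) and without iWAT 3 (adjusted p = 0.0459). The brown minus white difference of Ebf1 was -0.27 (SE 0.16, adjusted p = 0.157), and -0.46 without iWAT 1 and 3. In the iWAT libraries with the high B cell marker sums it stood at 72.6 CPM in iWAT 1 and 58.7 in iWAT 3 against 103.5 in iWAT 2. Ebf4, the remaining family member, had 176 counts in all 12 libraries together and was not called (adjusted p = 0.157).

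The balance within the family differed between the depots. Per kb of exon, Ebf2 made up 49.7 ± 10.9% (SD, n = 3) of the summed level of Ebf1, Ebf2 and Ebf3 in iBAT, 53.2 ± 9.22% in scBAT, 42.4 ± 0.835% in eWAT and 23.2 ± 4.24% in iWAT. The share of Ebf1 was 21.5 ± 7.12% in iBAT, 44.0 ± 8.24% in iWAT, 39.6 ± 1.92% in eWAT and lowest in scBAT at 18.4 ± 5.71%. With the longest transcript as the length in place of all exons, the share of Ebf2 was 43.1, 46.3, 36.6 and 19.0% in iBAT, scBAT, eWAT and iWAT. The log2 ratio of Ebf2 to Ebf1 was 1.41 ± 0.71 in brown and -0.41 ± 0.65 in white libraries, and that of Ebf3 to Ebf1 was 0.57 ± 0.30 against -0.78 ± 0.50. No brown library overlapped a white one in either ratio (exact permutation test, p = 0.00216, the smallest that 6 against 6 libraries allow, adjusted p = 0.00325 for each).

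**Figure D2:**
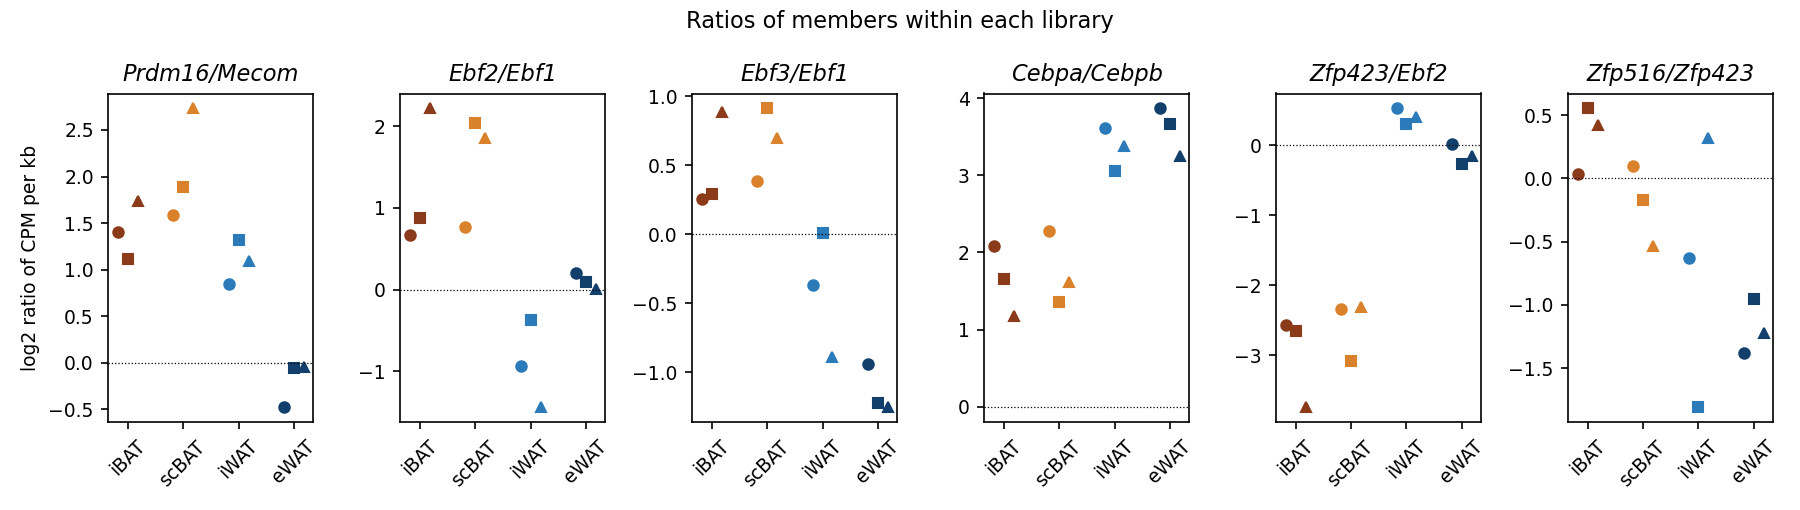
Log2 ratio of the levels per kb of exon of 2 regulators in each library (vertical axes) by depot (horizontal axis). Brown and white libraries do not overlap for Ebf2/Ebf1, Ebf3/Ebf1, Cebpa/Cebpb and Zfp423/Ebf2, and iWAT lies above eWAT for Prdm16/Mecom.

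Of the C/EBP factors, leucine zipper proteins that act in sequence during fat cell differentiation, Cebpb showed the widest difference. Cebpb (chromosome 2, 167688915 to 167690418) stood at 114.5, 161 and 225 CPM in iBAT and at 89.6, 189 and 177 CPM in scBAT. It stood at 19.4, 51.8 and 14.5 CPM in iWAT and at 29.2, 33.5 and 39.6 CPM in eWAT. The lowest brown library was well above the highest white library, iWAT 2. The brown minus white difference was 2.35 (SE 0.33, adjusted p = 0.000105), and each brown depot was higher than each white depot (log2 differences from 2.15 to 2.55, adjusted p from 0.000971 to 0.00302). In the annotation 312 bases of its exon also belong to Tmem189 on the other strand, and the strand setting of the counting is not given in the sources used here. Tmem189 went the other way, with a brown minus white difference of -0.76 (adjusted p = 6.43e-05).

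Cebpb is known as a gene induced by cyclic AMP, the messenger of adrenergic signals to brown fat, and its upstream sequence is shown for the cAMP response element core TGACG, searched on both strands. The 250 bases before its start (GRCm38.p6, chr2:167688665-167688914, plus strand) hold 3 matches, in capitals, at -180, -53 and -7. The core was present in 20.8% of all promoter entries, and among the members with an entry it was also found in Ebf3 (at -140 and -44) and in the second entry of Ebf1 (at 23). A match is a description of letters and was not tied to any measured binding.
Cebpb: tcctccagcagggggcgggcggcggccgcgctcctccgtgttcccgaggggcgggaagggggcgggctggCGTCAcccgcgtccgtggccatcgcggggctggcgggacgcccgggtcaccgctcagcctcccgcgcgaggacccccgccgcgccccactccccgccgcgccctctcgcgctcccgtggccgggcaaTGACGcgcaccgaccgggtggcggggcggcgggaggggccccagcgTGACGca

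Cebpa (chromosome 7, 35119293 to 35121928) was the most abundant regulator per kb in every depot. It stood at 849.8, 891 and 892 CPM in iBAT and at 760.5, 847 and 951 CPM in scBAT. It stood at 419, 756 and 266 CPM in iWAT and at 747, 747 and 664 CPM in eWAT. The lowest brown library, scBAT 1, was close to the highest white library, iWAT 2. Brown fat exceeded white fat by 0.56 (SE 0.21, adjusted p = 0.0350). This call was lost in 9 of the 12 fits that left out a library, namely any of iBAT or eWAT, scBAT 2 or 3, or iWAT 1 (adjusted p up to 0.0774), and with upper quartile scaling (adjusted p = 0.0720).

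The ratio of Cebpa to Cebpb was lower in brown fat. Per kb, Cebpa exceeded Cebpb 3.23-fold in brown and 11.1-fold in white libraries (geometric means, n = 6 each). The log2 ratio was 1.69 ± 0.42 in brown and 3.47 ± 0.30 in white, with no overlap (difference -1.78, exact permutation p = 0.00216, adjusted p = 0.00325). The ratio was 3.35 ± 0.28 in iWAT and 3.59 ± 0.31 in eWAT, and the 3 iWAT libraries lay within 3.05 to 3.62 although Cebpa itself ranged from 266 to 756 CPM there. Of the other family members, Cebpd, an early factor, fell in brown fat (-1.45, SE 0.21, adjusted p = 0.000126) and the stress factor gene Ddit3 rose (0.87, SE 0.11, adjusted p = 3.87e-05).

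Zfp423 (chromosome 8, 87661810 to 87959595) was the regulator with the largest fall in brown fat. It stood at 14.6, 12.6 and 11.9 CPM in iBAT and at 15.1, 16.2 and 24.0 CPM in scBAT. It stood at 31.4, 56.8 and 16.4 CPM in iWAT and at 53.8, 50.2 and 51.1 CPM in eWAT. Every eWAT library was above every brown library, while iWAT 3 lay within the brown range. Brown minus white was -1.45 (SE 0.25, adjusted p = 0.000458), and iBAT minus eWAT was -1.99 (SE 0.37, adjusted p = 0.000988). The difference of scBAT from iWAT (-0.92, adjusted p = 0.0437) was lost with limma-voom (adjusted p = 0.130) and in 10 of the 12 fits that each left out a library (adjusted p up to 0.209). Its paralog Zfp521 fell as well (-1.42, SE 0.12, adjusted p = 1.97e-06).

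The promoter of Zfp423 is shown because it was the only one among the members' entries with the C/EBP motif TTGCNNAA, searched on both strands and present in 10.8% of all entries. The 250 bases before its start (chr8:87959596-87959845, minus strand, the first of its 2 entries) hold 1 match at -131, in capitals, and another lies at 23 after the start. The palindromic EBF motif, present in 0.904% of all entries, was found only in the second entry of Mecom, and no matches of different motifs overlapped.
Zfp423: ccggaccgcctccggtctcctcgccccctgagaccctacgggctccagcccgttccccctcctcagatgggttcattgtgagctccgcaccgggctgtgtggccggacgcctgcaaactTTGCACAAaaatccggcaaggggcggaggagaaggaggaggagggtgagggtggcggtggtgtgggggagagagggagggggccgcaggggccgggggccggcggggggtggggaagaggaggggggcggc

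Zfp423 against Ebf2, the factor it is known to restrain, had the widest shift of the 6 ratios computed. Per kb, the log2 ratio of Zfp423 to Ebf2 was -2.78 ± 0.54 in brown libraries, where Zfp423 was at 0.146 of the level of Ebf2, and 0.14 ± 0.32 in white libraries, where it was at 1.103 of it (geometric means). The difference was -2.92 (exact permutation p = 0.00216, adjusted p = 0.00325). Within white fat the ratio was 0.41 ± 0.11 in iWAT and -0.13 ± 0.15 in eWAT, without overlap. The iWAT libraries lay between 0.31 and 0.53 in the ratio, while from iWAT 3 to iWAT 2 Ebf2 differed 3.69-fold and Zfp423 3.46-fold.

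Zfp516 (chromosome 18, 82910663 to 83005314), although known as a brown factor, was slightly lower in brown fat. Its libraries ranged from 21.2 to 24.5 CPM in scBAT, 22.1 to 27.3 in iBAT, 23.9 to 30.3 in iWAT and 30.5 to 38.3 in eWAT. Brown minus white was -0.37 (SE 0.10, adjusted p = 0.00562). Each brown depot was lower than eWAT (iBAT by -0.47, adjusted p = 0.0144, and scBAT by -0.54, adjusted p = 0.00754), and neither was called against iWAT (adjusted p = 0.210 and 0.104). For scBAT against iWAT it was called lower with upper quartile scaling (-0.32, adjusted p = 0.0455) and without iWAT 2 (-0.38, adjusted p = 0.0173). The ratio of Zfp516 to Zfp423 was higher in brown fat (log2 difference 1.01, exact permutation p = 0.0195, adjusted p = 0.0195), with overlap.

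**Figure D3:**
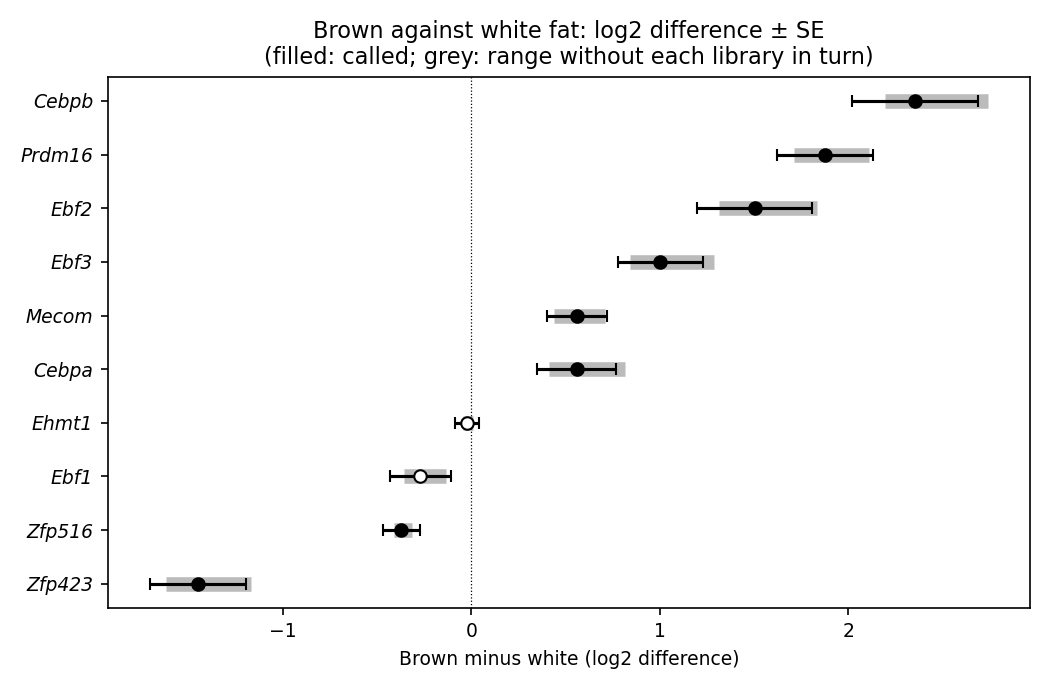
Log2 difference of brown minus white fat for each regulator (horizontal axis, point and SE bar), with filled points for called genes and grey bands for the range without each library in turn. Cebpb lies highest at 2.35 and Zfp423 lowest at -1.45, and Ehmt1 lies at -0.02.

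Between the brown depots none of the 10 regulators was called, where 0.329% of all tested genes were. The count was also 0 with DESeq2 and limma-voom, and 0 had an unadjusted p under 0.05. The largest differences were in Zfp423 (0.50, SE 0.36) and Prdm16 (0.46, SE 0.35), both with the higher mean in scBAT. Between the white depots Prdm16 alone was called, 1 of 10 where 28.7% of all tested genes were. For pairs of a brown and a white depot, which share their libraries with the comparison of all brown and white fat, 6 of 10 were called for iBAT against iWAT (63.0% of all genes), 6 for iBAT against eWAT (53.7%), 5 for scBAT against iWAT (61.6%) and 5 for scBAT against eWAT (51.9%). Prdm16, Cebpb and Zfp423 were called in each of these 4 pairs. Ebf2 was called against iWAT and Ebf3 and Zfp516 against eWAT. Mecom was called for iBAT against either white depot, and Cebpa for either brown depot against iWAT. Of these calls, Mecom for iBAT against eWAT was lost in 10 of the 12 fits that each left out a library (adjusted p up to 0.152). Cebpa against iWAT was lost in 4 for each brown depot (up to 0.102), Prdm16 for iBAT against iWAT in 3 (up to 0.0714) and Zfp516 for iBAT against eWAT in 2 (up to 0.0625). With only the depots compared in the fit, Ebf2 was also called over eWAT for iBAT (0.96, adjusted p = 0.0341) and scBAT (0.98, adjusted p = 0.00824). Cebpa was then called over eWAT as well (0.31 and 0.26, adjusted p = 0.00550 and 0.0446). In such fits against iWAT, Cebpa was not called for iBAT or scBAT (adjusted p = 0.110 and 0.134), nor Mecom for iBAT (0.0639) or Zfp423 for scBAT (0.146).

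The comparison of the white depots depended on which iWAT libraries were in the fit. Leaving out iWAT 2 keeps iWAT 1 and 3, whose summed B cell markers were 1705 and 2349 CPM, against 97.8 CPM in iWAT 2. Without it, 5 members were lower in iWAT than in eWAT, where 32.5% of all tested genes were, namely Ebf2 (-1.73), Zfp423 (-1.11), Cebpa (-1.07), Cebpb (-1.01) and Mecom (-0.46), while with all libraries none was. Ehmt1 was higher in iWAT (0.29, adjusted p = 0.00893), 1 of 10 where 34.7% of all tested genes were. Prdm16 was then at 0.67 (adjusted p = 0.0754). With iWAT 1 and 3 left out instead, Mecom (0.26), Cebpa (0.091), Cebpb (0.63) and Zfp423 (0.16) changed sign, while Ebf2 did not.

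The coefficient of variation over a depot's libraries was largest in iWAT for all 10 regulators, and their SD in CPM for 6 of them. Over all tested genes, edgeR's coefficient was 42.6% in iWAT, 12.1% in iBAT, 15.7% in scBAT and 17.5% in eWAT. The fit of all libraries shares 1 estimate of the spread between the depots. A shared order of the iWAT libraries held for 8 regulators. Prdm16, Mecom, Ebf1, Ebf2, Ebf3, Cebpa, Cebpb and Zfp423 were each highest in iWAT 2 and lowest in iWAT 3. Zfp516 and Ehmt1 had their lowest iWAT value in iWAT 2. The ratio of iWAT 2 to iWAT 3 was 3.69 for Ebf2, 3.58 for Cebpb, 3.46 for Zfp423, 3.30 for Ebf3, 2.84 for Cebpa, 2.47 for Prdm16, 2.11 for Mecom and 1.76 for Ebf1. It was 0.788 for Zfp516 and 0.849 for Ehmt1. The same order was seen for Adipoq (1152, 1883 and 738 CPM in iWAT 1 to 3), and the reverse for the B cell markers and for the summed level of 11 T cell markers (1255, 81.1 and 1949 CPM). The part of these cells in the members' values was not tested.

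**Figure D4:**
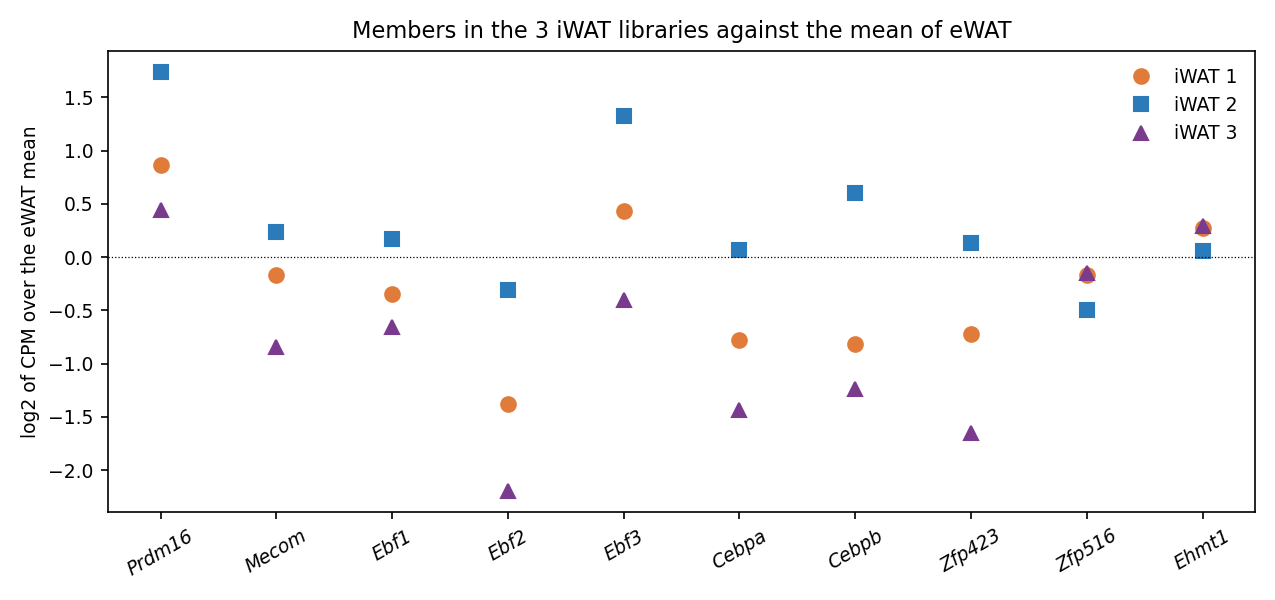
Log2 of the level of each regulator in the 3 iWAT libraries over the mean of eWAT (vertical axis), by gene. The square of iWAT 2 lies above the other libraries for 8 genes and below them for Zfp516 and Ehmt1, and Prdm16 lies above 0 in all 3.

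With iWAT 1 and 3 left out, a choice made after seeing the data that leaves 1 library of iWAT, the lone library is assumed to vary like those of the other depots. The 8 brown against white calls were kept and Ebf1 was added to the lower ones, where 33.6% of all tested genes were higher and 35.2% lower. The log2 difference was then 1.57 for Prdm16, 1.122 for Ebf2, 0.66 for Ebf3, 0.36 for Mecom, 0.24 for Cebpa, 1.93 for Cebpb, -1.79 for Zfp423 and -0.24 for Zfp516. The counts against iWAT fell from 5 higher to 1 for iBAT and from 4 higher to 1 for scBAT (24.1% and 23.8% of all tested genes), in both cases Cebpb, while Zfp423 remained lower in both. Against eWAT the count of higher members for scBAT went from 3 to 6 (33.3% of all tested genes). Between the white depots the single iWAT library gave 1.35 for Ebf3 and 1.76 for Prdm16, and both were called higher (3.12% of all tested genes), with a spread that comes from the other depots only.

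Genes that work with these regulators were described from lists by function. The counts in these and the later lists are read beside the shares of all tested genes, 31.3% called higher and 38.1% lower in brown fat. Of 21 genes for partners of PRDM16, 4 of them members, 11 rose and 4 fell in brown fat, with a median of 0.33. Ppargc1b (3.72), Ppargc1a (3.31) and Ppara (4.30), all of the fuel-burning program, rose, and Cul2, a ligase subunit that takes PRDM16 to degradation, rose by 0.74 (SE 0.07, adjusted p = 4.71e-06). Those that fell include Zfp516, Ehmt2 and the deacetylase gene Hdac1 (-0.67). Of the PRDM family 4 rose and 4 fell of 11 tested, near those shares, with Prdm1 (-1.04) among the lower ones.

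Regulators reported to favour brown fat had 10 higher and 4 lower of 17 tested, with a median of 0.80. Esrra (2.16) rose with the Ppargc1 genes, while Foxc2 (-2.50), Plac8 (-3.21), Bmp7 (-1.41) and Klf11 (-0.58) fell. Regulators reported to favour white or restrain brown fat had 3 higher and 9 lower of 18, with a median of -0.78. Zfp521 and Rbl1 (-1.90), a pocket protein gene, fell, and Rb1 (0.32), Id1 (0.85) and Tbx15 (1.40) rose. The value of Tbx15 does not divide brown from white depots. Its mean was highest in iWAT (25.1 CPM), lower in scBAT (18.4 CPM) and iBAT (7.82 CPM), and lowest in eWAT (0.81 CPM). The wider differentiation cascade had 5 higher and 11 lower of 22, with a median of -0.27. Its core receptor gene Pparg rose by 0.76 (SE 0.22, adjusted p = 0.00978), as did Stat5a (0.67), Gata2 (0.64), Bcl6 (0.61) and Zfp467 (0.51). Egr2 (-3.21) and Tcf7l2 (-1.15) fell.

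The genes that mark the brown and white programs had wider medians than the lists of regulators. They were listed as genes that differ between the fats, so the wider medians describe the lists and test nothing. Ppargc1a is on the brown target list and also on lists of regulators. Of 15 brown target genes 14 rose and 1 fell, with a median of 4.56, and Cidea, a lipid droplet gene, rose by 4.45 (SE 0.44, adjusted p = 7.42e-06). Adrb3, the beta-3 adrenergic receptor gene, fell by 1.21 on the log2 scale. Of 8 white genes 7 fell and none rose, with a median of -3.78. They include Retn (-2.63, SE 0.24, adjusted p = 4.39e-06) and Agt (-3.56, SE 0.55, adjusted p = 0.00018), both genes of secreted proteins.

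Markers of other cells that use these factors also differed between the fats. Of 11 progenitor markers 2 rose and 7 fell, and their summed level ran from 509 to 653 CPM in brown and from 809 to 969 CPM in white libraries. Of 11 macrophage markers 10 fell, at 244 to 495 CPM in brown and 1427 to 1649 CPM in white libraries. Endothelial markers had 3 higher and 3 lower of 11, at 1402 to 1816 CPM in brown and 1013 to 1663 CPM in white libraries, and pericyte and smooth muscle markers 3 higher and 2 lower of 8. All 14 tested skeletal muscle markers rose, with sums from 453 to 6568 CPM in brown and 62.9 to 243 CPM in white libraries. Of 9 mesothelial markers 8 fell, with sums of 473 to 639 CPM in eWAT and at most 22.6 CPM elsewhere. Upk3b, Upk1b, Wt1 and Bnc1 had no count in either brown depot, nor Msln in iBAT, and the muscle gene Myog had none in eWAT. Of 10 B cell markers 9 fell, and all 11 T cell markers fell, with the high sums in iWAT. The T cell sums were 11.3 to 19.3 CPM in brown libraries, 19.0 to 21.3 in eWAT and 81.1 to 1949 in iWAT. The B cell sums were 6.09 to 10.5 CPM in brown libraries, 6.96 to 45.5 in eWAT and 97.8 to 2349 in iWAT. Among 7 markers of Schwann cells and nerve 3 rose and 1 fell. Th, a nerve marker, had no count in scBAT, iWAT or eWAT. The part of these cells in the differences between brown and white fat was not tested.

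The genes most like each regulator were those with the smallest root mean square distance of centred log2 CPM over the 12 libraries, among 9754 genes. For Prdm16 they include Pde7b (0.35) and Acsf2 (0.35), and for Mecom they were Kdr (0.11), the endothelial growth factor receptor gene, Zfp229 (0.12) and Fat4 (0.13). For Ebf2 they were Usp2 (0.20), P2ry2 (0.23) and Hk2 (0.30), and for Ebf3 they include Micall1 (0.20) and Tdrkh (0.24). For Ebf1 they were Ttc28 (0.13), Arl15 (0.14) and Tanc1 (0.14). Cebpa was nearest to Carhsp1 (0.06), Chchd6 (0.07) and Dgat1 (0.07), an enzyme gene of triglyceride synthesis, and Cebpb to Dagla (0.25), Vwa8 (0.31) and Rasl12 (0.31). Zfp423 was nearest to Itga7 (0.16), Grb10 (0.18) and Fndc3b (0.19), Zfp516 to Katnbl1 (0.11), Pik3ca (0.13) and Tab3 (0.13), and Ehmt1 to Itch (0.04), Spg11 (0.05) and Wdr26 (0.05). Among the regulators themselves the nearest pair was Mecom and Cebpa (0.23), followed by Zfp516 and Ehmt1 (0.27).

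Per length, Cebpa led in every depot, at 333 ± 9.11 CPM per kb of exon in iBAT, 324 ± 36.2 in scBAT, 273 ± 18.3 in eWAT and 182 ± 95.1 in iWAT. Cebpb came next in every depot, at 110.9 ± 36.8 CPM per kb in iBAT, 100.97 ± 36.0 in scBAT, 22.7 ± 3.50 in eWAT and 19.0 ± 13.5 in iWAT. Ebf2 followed in both brown depots, and in eWAT too unless the longest transcript was taken as the length, when Ebf1 did. In iWAT it was at 4.75 ± 3.07 CPM per kb, below Ehmt1, Ebf1, Ebf3 and Zfp423 in the mean. Prdm16 stood at 6.59 ± 2.53 CPM per kb in scBAT, 4.79 ± 0.853 in iBAT, 2.26 ± 1.08 in iWAT and 1.04 ± 0.22 in eWAT, where it was the lowest of the 10. Exon lengths came from the GENCODE M21 annotation, which need not be the set of exons the reads were counted on.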

How the data were processed

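The deposited table holds raw counts of reads per gene symbol, whole numbers to which the authors applied no normalization. The submitters' processing notes name build mm10 and the tools edgeR, HTSeq 0.6.1p1, Picard 1.119, STAR 2.4.2a and bcl2fastq 1.8.3. Their roles, the gene annotation and the strand setting are not given in the sources used here. Genes were filtered with filterByExpr on depot, leaving 14898. A model with 1 mean for each depot was fitted to the 12 libraries together (8 residual degrees of freedom). It was run in R 4.3.3 with edgeR 4.0.16 (TMM, robust quasi-likelihood test, Benjamini-Hochberg adjustment over the tested genes). On simulated brown against white counts, the test recovered 30 of 100 genes changed 1.5-fold and 100 of 100 changed 4-fold, with 7 false calls. A gene that was not called between brown and white fat may therefore still differ by about 1.5-fold. Pairs of depots, with fewer libraries, were not simulated, and larger differences can go uncalled there. Ebf2, for example, was not called between iWAT and eWAT at 2.13-fold. Log2 CPM had a prior count of 2. Lengths came from GENCODE M21 (GRCm38). Ratios were tested with exact two-sided permutation tests adjusted over 6 ratios, which take the libraries and not the depots as units. All members were named, and from each list the 4 genes with the smallest adjusted p, genes called against most of their list and a fixed set could be. Like genes were the 3 nearest with a mean of at least 10 CPM, without predicted gene models. Alternatives were DESeq2 1.42.0, limma-voom (limma 3.58.1), other scalings, no filter, a replicate block, fewer depots and each library left out. The members and lists were chosen with earlier results of these data known. Some genes that these rules name are not reported here.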

Additional observations from a re-analysis of the deposited data

How the results depend on the processing

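The 8 brown against white calls kept their direction and call under the alternatives run, other than Cebpa as described. Counts of called members moved as follows, and the cause was not tested. The share of all tested genes called moved too. Between the white depots it was 28.7% in either direction with all libraries, and 32.5% lower and 34.7% higher in iWAT without iWAT 2. Shares for the other settings are not set beside the counts here, so a moved count is not a result about the members alone. For iWAT over eWAT (1 higher, 0 lower) the higher count was 0 with limma-voom, the replicate block or only the depots compared, 2 without iWAT 1 and 3, and 0 to 2 without each library. The lower count was 1 with DESeq2 or limma-voom and 0 to 5 without each library. For iBAT against iWAT (5 higher) it was 3 with only those depots, 1 without iWAT 1 and 3, and 3 to 6 without each library. For iBAT against eWAT (4 higher, 2 lower) the higher count was 6 with only those depots or without iWAT 1 and 3 and 3 to 5 without each library, and the lower count was 1 to 2 without each library. For scBAT against iWAT (4 higher, 1 lower) the higher count was 6 with limma-voom, 1 without iWAT 1 and 3, and 3 to 6 without each library. The lower count was 2 with upper quartile scaling, 0 without a filter, with limma-voom, the replicate block or only those depots, and 0 to 1 without each library. For scBAT against eWAT (3 higher) the higher count was 6 with only those depots or without iWAT 1 and 3.

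Signs reversed only in uncalled differences. Without iWAT 1 and 3, iWAT minus eWAT became 0.26 for Mecom, 0.19 for Ebf1, 0.091 for Cebpa, 0.63 for Cebpb and 0.16 for Zfp423, iBAT minus iWAT 0.029 for Zfp516 and 0.022 for Ehmt1, scBAT minus iWAT -0.043 for Ebf3 and 0.032 for Ehmt1, and brown minus white 0.066 for Ehmt1. Ebf1 in iBAT minus iWAT was 0.0030 with DESeq2 size factors and 0.0019 with DESeq2. With upper quartile scaling Ehmt1 was -0.013 in iBAT minus eWAT and -0.0069 in scBAT minus eWAT. Over the fits without each library, scBAT minus iBAT ran from -0.15 to 0.42 for Ebf2, -0.13 to 0.035 for Cebpa, -0.34 to 0.14 for Cebpb, -0.13 to 0.019 for Zfp516 and -0.030 to 0.075 for Ehmt1. Likewise iWAT minus eWAT ran from -0.46 to 0.047 for Mecom and -1.01 to 0.059 for Cebpb, iBAT minus iWAT from -0.20 to 0.25 for Ebf1, and brown minus white from -0.047 to 0.0067 for Ehmt1.

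Same-numbered libraries did not deviate together (correlation over 0.1 in 5 of 18 pairs, and 5 of 12 libraries were nearest to their own number), so the numbers were not taken as pairs. With the replicate block, Ebf2 in scBAT minus iBAT was -0.021, and Prdm16 in iWAT minus eWAT was 1.11 (adjusted p = 0.0518). All 6 ratios kept their sign and call. The median over all tested genes of brown minus white was -0.11 with TMM and -0.17 with upper quartile scaling.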
